A study of Mus musculus with 2 samples.

Results

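The 10 genes described here are Ptprc, Laptm5, Lcp1, Itgal, Ikzf1, Lyl1, Itpkb, Cd79b, Cd74 and Mrc1, grouped as genes of white blood cells. Their DNA methylation was examined in cultures of sorted adipose progenitors put through adipogenic differentiation. Of the 28141 differentially methylated regions that the authors listed, 31 lay in the RefSeq span of one of these genes (GRCm38.p6, the assembly of mm10) or within 2 kb of it. Every gene held at least 1 region. The genes were selected on these same values, a listed region and, for most of them, its direction, so the levels and counts of the 10 genes are given as a description, with no test.

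The levels came from whole-genome bisulfite sequencing, a method that converts unmethylated cytosines and spares methylated ones, and a level is the methylated fraction given for a region. The CD137+ group is 1 library of progenitors from C57BL/6 mice sorted magnetically for CD137, a surface receptor by which precursors of beige adipocytes are recognised. The PDGFRα+ group is 1 library sorted in the same way for PDGFRα (CD140), a receptor of mesenchymal progenitors. Cells of both groups came from subcutaneous or visceral fat, were grown in culture and put through adipogenic differentiation, and both received the glucocorticoid dexamethasone at 1 µM. The labels do not say which depot gave which library, how many mice were pooled, or their age, and no library without dexamethasone was analysed here. With 1 library per group no difference has a replicate check, and the read depth is unknown, so levels carry no interval.

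Leukocytes arise from blood stem cells, whereas adipose progenitors are mesenchymal cells. Promoters and enhancers of genes used only by blood cells are as a rule methylated in other lineages and lose methylation as blood cells form. Fat contains resident macrophages and lymphocytes, and CD45, the product of Ptprc, is the surface protein by which they are usually separated from progenitors. CD137 is itself best known as a receptor of activated T cells. In a bulk library a level between 0 and 1 can come from cells that are all partly methylated or from a mixture of cells, and these cannot be told apart. Only methylation was analysed here, so the presence of leukocytes in either library was not tested by RNA or protein.

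Most regions of the 10 genes were more methylated in the PDGFRα+ library. Of the 31 regions, 27 (87.1%) were higher in PDGFRα+ and 4 were lower, while over all listed regions 22.3% were higher. Of the 10 genes, 7 had mostly higher regions, 2 (Itgal and Mrc1) had a single lower region each, and Cd74 had 1 of each. Among the 6454 protein-coding genes with a region, 21.6% had mostly higher regions, and 29.5% of all protein-coding genes had a region. The median difference over the 31 regions, PDGFRα+ minus CD137+, was 0.510, against -0.488 over all regions.

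**Figure D1:**
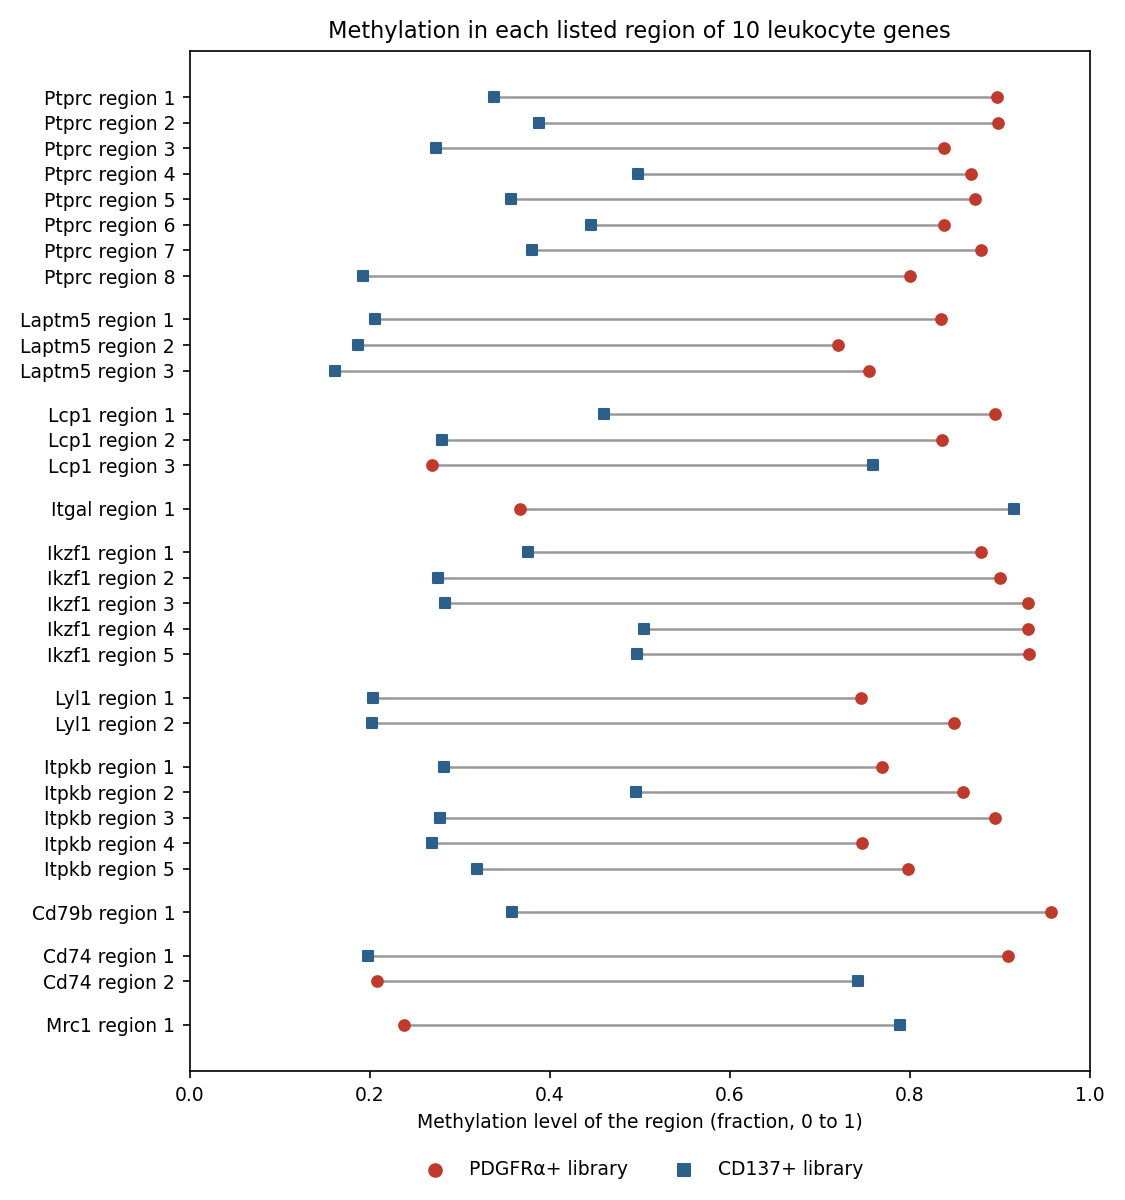
Methylation level (fraction, horizontal axis) of each of the 31 listed regions in the PDGFRα+ library (circles) and the CD137+ library (squares), with the regions of a gene numbered along the chromosome. In 27 regions the circle lies to the right of the square, and in 4 regions, of Lcp1, Itgal, Cd74 and Mrc1, it lies to the left.

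Ptprc encodes CD45, the receptor tyrosine phosphatase found on all nucleated blood cells. The gene spans chr1:138062859-138175756, is read from the minus strand and held 8 regions, all higher in PDGFRα+. The region at its start, chr1:138175200-138175674, was methylated at 0.801 in PDGFRα+ and at 0.192 in CD137+. The next 2 regions in the direction of transcription, 324 and 1240 bases from the nearer listed start, had levels of 0.880 and 0.838 in PDGFRα+ and of 0.381 and 0.446 in CD137+. The region at the start therefore had the lowest level of the gene in either library, and the widest difference, 0.608. Farther into the gene, 12006 and 12172 bases from that start, a pair of regions separated by 55 bases had levels of 0.872 and 0.868 against 0.357 and 0.498. A region 16634 bases from it had levels of 0.838 and 0.274. The last 2 regions, 39198 and 40511 bases from it, had levels of 0.898 and 0.897 in PDGFRα+ and of 0.388 and 0.338 in CD137+. The 8 levels thus spanned 0.801 to 0.898 in PDGFRα+ and 0.192 to 0.498 in CD137+. Over all listed higher regions the quartiles were 0.818 and 0.924 in PDGFRα+, and 0.261 and 0.427 in CD137+. Only higher regions were found at 10 (1.22%) of the 821 protein-coding genes that held 5 or more, and Ptprc, Ikzf1 and Itpkb are among the 10. Ptprc was the gene with the most regions of this kind. Ptprc, Ikzf1 and Itpkb were chosen with earlier results of these data known, so their place there is a description only.

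The promoter window of Ptprc, 250 bases before and 50 after the start in RefSeq (GRCm38.p6), is shown because all of it lies inside the region at the start, whose levels were 0.801 and 0.192. CG dinucleotides, the usual site of methylation in mammals, are in capitals. The window covers chr1:138175256-138175555 and is written 5′ to 3′ on the minus strand.
Ptprc promoter: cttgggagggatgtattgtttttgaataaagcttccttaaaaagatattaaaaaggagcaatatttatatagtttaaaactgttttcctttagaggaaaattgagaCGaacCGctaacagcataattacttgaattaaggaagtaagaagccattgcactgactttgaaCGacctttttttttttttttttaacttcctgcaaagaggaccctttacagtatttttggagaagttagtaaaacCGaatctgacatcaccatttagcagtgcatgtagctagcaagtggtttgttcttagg
The window holds 4 CG dinucleotides in 300 bases, where the median over 21263 windows of protein-coding genes is 13. The window of the other listed start, which lies downstream, has 177 of its bases and both of its CG dinucleotides in the same region.

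Laptm5 encodes a lysosomal membrane protein of blood cells that lowers the surface level of antigen receptors. All 3 of its regions were higher in PDGFRα+ and began between 12 and 1593 bases after the listed start of the gene (chr4:130912890-130936148, plus strand). The region nearest the start, chr4:130913328-130913405, had levels of 0.835 against 0.206, PDGFRα+ first. The next, chr4:130914489-130914793, had levels of 0.720 and 0.187. The third, chr4:130914909-130915918, is 1009 bases long and had levels of 0.754 and 0.161. Laptm5 held the lowest mean level in CD137+ among the 10 genes, 0.185 ± 0.0225 (SD over 3 regions), and the levels in PDGFRα+ were 0.770 ± 0.0588. A non-coding RNA gene, Gm38599, lies in or within 2 kb of the same 3 regions.

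The promoter window of Laptm5 (chr4:130913066-130913365, plus strand, RefSeq) is shown because its last 38 bases lie in the region nearest the start and hold 4 of its 9 CG dinucleotides, again in capitals.
Laptm5 promoter: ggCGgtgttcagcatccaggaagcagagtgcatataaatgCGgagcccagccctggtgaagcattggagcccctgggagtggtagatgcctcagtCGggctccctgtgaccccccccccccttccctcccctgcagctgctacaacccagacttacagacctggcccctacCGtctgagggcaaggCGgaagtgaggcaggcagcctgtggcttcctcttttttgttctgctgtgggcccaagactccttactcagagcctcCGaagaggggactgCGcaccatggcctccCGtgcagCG

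Lcp1 encodes L-plastin, the actin-bundling protein of leukocytes. It differed from Ptprc and Laptm5 in that no region lay near a start and the directions were mixed. The longest of its regions, chr14:75178486-75181089, holds 82 cytosines over 2603 bases and had levels of 0.836 against 0.280, PDGFRα+ first. It is the fifth longest of the 28141 regions and the longest among those higher in PDGFRα+. A shorter region 3257 bases before it, chr14:75175107-75175229, had levels of 0.894 and 0.460. The lower region, chr14:75213797-75214224, lies 32708 bases beyond the long one and had levels of 0.269 and 0.760. The mean difference over the gene, 0.167 ± 0.572 (SD over 3 regions), spans both directions. Weighting by cytosines gave 0.314 and regions with at least 10 cytosines alone 0.0325.

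Itgal encodes the αL chain of LFA-1, the integrin that leukocytes use to adhere to other cells. Its single region, chr7:127326296-127326518, was lower in PDGFRα+, with levels of 0.367 against 0.916 in CD137+. The level in CD137+ is the highest of any of the 31 regions in that library. Itgal and Ptprc thus differed in direction although both products are found on nearly all leukocytes.

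Ikzf1 encodes Ikaros, a zinc-finger transcription factor needed for lymphocyte development. All 5 of its regions were higher in PDGFRα+, and 4 of them lay at most 2813 bases from a listed start (chr11:11684962-11772930, plus strand). The region chr11:11691370-11691986, with 23 cytosines, had levels of 0.931 against 0.283, PDGFRα+ first, and the region chr11:11688246-11688878 had levels of 0.900 and 0.276. These are the widest differences of the gene, 0.648 and 0.624. The other 2 regions near the starts had levels of 0.879 and 0.376, and of 0.931 and 0.505. The fifth, 60415 bases from the nearer start, had levels of 0.933 and 0.497. Mean levels over the 5 regions were 0.915 ± 0.0244 in PDGFRα+, the highest among the genes with several regions, and 0.387 ± 0.111 in CD137+ (SD over regions). The non-coding RNA gene Gm11999 lies within 2 kb of the region chr11:11687374-11687966, and 3 of the 4 regions at that gene were higher.

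The promoter windows of the listed starts of Ikzf1 (RefSeq, plus strand) are shown because they differ in their CG content and neither overlaps a region. The window of the first start, chr11:11685675-11685974, holds 52 CG dinucleotides, and 99.4% of the windows of protein-coding genes hold no more. The other, chr11:11689927-11690226, holds 2 and lies between the regions with the widest differences, its start 1193 bases before the one of the wider difference.
Ikzf1 first start: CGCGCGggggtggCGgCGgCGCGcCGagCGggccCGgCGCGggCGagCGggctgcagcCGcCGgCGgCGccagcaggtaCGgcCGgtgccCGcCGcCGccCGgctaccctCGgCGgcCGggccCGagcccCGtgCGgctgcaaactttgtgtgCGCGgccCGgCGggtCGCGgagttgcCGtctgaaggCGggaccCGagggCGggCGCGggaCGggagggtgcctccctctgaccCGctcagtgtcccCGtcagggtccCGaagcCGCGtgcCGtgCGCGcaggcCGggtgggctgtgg
Ikzf1 other start: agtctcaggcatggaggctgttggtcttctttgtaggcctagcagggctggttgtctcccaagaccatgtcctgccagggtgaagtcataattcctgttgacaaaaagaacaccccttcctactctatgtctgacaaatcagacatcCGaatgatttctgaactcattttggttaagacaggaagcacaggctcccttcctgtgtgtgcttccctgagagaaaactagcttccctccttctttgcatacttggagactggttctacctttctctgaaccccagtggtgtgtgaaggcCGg
A window without a listed region is not shown to be equal in the libraries, because levels outside the list were not analysed here.

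Lyl1 encodes a basic helix-loop-helix transcription factor of blood stem and progenitor cells. Its 2 regions lie at the end of the gene (chr8:84701423-84704716, plus strand), 1 across the edge of the span and 1 starting 1245 bases outside it. The region chr8:84704587-84705229 had levels of 0.746 against 0.203, PDGFRα+ first, and the region chr8:84705961-84706852 had levels of 0.849 and 0.202. They hold 36 and 53 cytosines, and their levels in CD137+ were nearly equal. The same regions lie at the edge of Nfix, a transcription factor gene of the nuclear factor I family (chr8:84704712-84801238). The 15 other regions of Nfix were all lower in PDGFRα+, and the nearest of them is 13831 bases from Lyl1. The methylation table cannot say to which of the neighbouring genes the 2 regions belong.

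Itpkb encodes a kinase that phosphorylates inositol trisphosphate and takes part in antigen-receptor signalling in lymphocytes. All 5 regions of the gene (chr1:180330390-180424802, plus strand) were higher in PDGFRα+. The region with the widest difference, chr1:180342909-180343379, had levels of 0.894 against 0.278, PDGFRα+ first. The region nearest the start, 2242 bases from it, had levels of 0.769 and 0.282, and the next had levels of 0.860 and 0.496, the narrowest difference of all 31 regions in either direction. A pair 106 bases apart, 73862 and 74082 bases from the start, had levels of 0.747 and 0.798 in PDGFRα+ and of 0.270 and 0.319 in CD137+. Mean levels were 0.814 ± 0.0618 and 0.329 ± 0.0954 (SD over 5 regions). The non-coding RNA gene Gm39712 shares the pair.

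Cd79b encodes the β signalling chain of the B-cell receptor. Its only region, chr11:106313815-106314003, has 5 cytosines and was higher in PDGFRα+, with levels of 0.957 against 0.358. That level in PDGFRα+ is the highest of the 31 regions.

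Cd74 encodes the invariant chain that guides class II molecules to the compartment where antigen is loaded. Inside the gene, the region at 60807359 to 60807674 on chromosome 18 had levels of 0.909 against 0.198, PDGFRα+ first. Its difference of 0.711 is the widest of the 31 regions, and 96.7% of all higher regions had one no wider. A second region, 1188 bases outside the gene at 60813840 to 60814136, had the opposite direction, with levels of 0.208 and 0.742. It lies also at Tcof1, which encodes the nucleolar protein treacle, and at Mir5107, and the other region of Tcof1 was higher (0.871 against 0.393). Taken within its own span, without the 2 kb at the sides, Cd74 was therefore higher.

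Mrc1 encodes the mannose receptor CD206, a marker of tissue-resident macrophages. It held 1 region in a span of 102610 bases, chr2:14237925-14238342, 8511 bases after the start. It was lower in PDGFRα+, with levels of 0.238 against 0.789. The gene with the sparsest regions was thus also 1 of the 2 with no higher region. Allowing 10 kb at the sides brought in 2 more regions at Mrc1, and all 3 were lower.

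**Figure D2:**
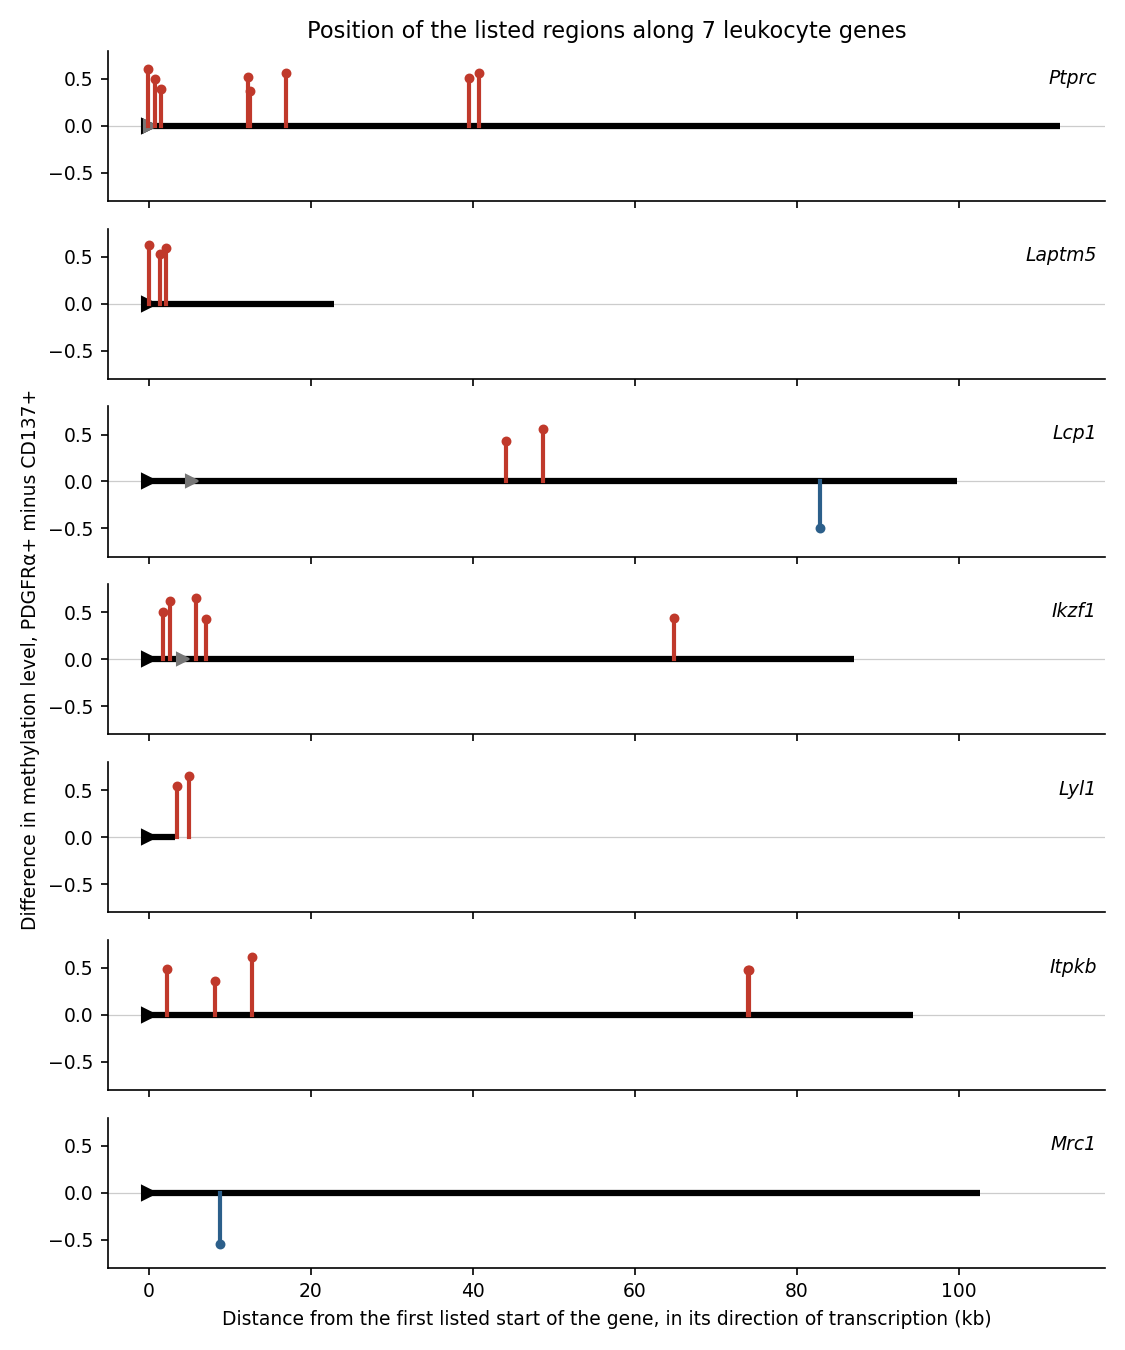
Difference in methylation level (PDGFRα+ minus CD137+, vertical axis) of each region against its distance in kb from the first listed start, in the direction of transcription, for the 7 genes with a start in the promoter table. Black bars are the gene, black triangles the first start and grey triangles another listed start. Ptprc, Laptm5 and Ikzf1 each have 3 regions within 2 kb of a start, and Itpkb, Lyl1, Lcp1 and Mrc1 have none.

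The stated choice of the genes did not use the distance to a start, and the higher regions of 3 genes gathered at starts. Starts were listed for 7 of the 10 genes. Of the 25 higher regions of these genes, 9 (36.0%) lay within 2 kb of a start of their own gene, 3 each in Ptprc, Ikzf1 and Laptm5, and 13 (52.0%) within 5 kb. Over all higher regions at protein-coding genes, 12.5% lay within 2 kb of a start of any such gene and 21.5% within 5 kb. Measured in that same way, the 27 higher regions of the 10 genes had 9 (33.3%) and 13 (48.1%). For lower regions at protein-coding genes the shares were 7.36% and 12.8%. No test is given for this difference, since regions of 1 gene are not independent. Neighbouring regions were often close, with 10 of the 21 gaps between them under 2 kb and 6 under 500 bases, so the 31 regions are fewer separate stretches. After merging neighbours of the same direction within 1 kb, 20 of 24 were higher.

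The levels of the 27 higher regions ran from 0.720 to 0.957 in PDGFRα+, with a median of 0.868 and quartiles of 0.818 and 0.898. In CD137+ they ran from 0.161 to 0.505 with a median of 0.283. All listed higher regions had medians of 0.879 and 0.344, with like quartiles of 0.818 and 0.924 in PDGFRα+. None of the 27 was near 0 in CD137+, and 4 were below 0.2. The 4 lower regions had levels from 0.208 to 0.367 in PDGFRα+ and from 0.742 to 0.916 in CD137+, around the medians of all lower regions, 0.261 and 0.820. The higher regions were longer at the upper end than most, with 7 of 27 (25.9%) at least 500 bases long against 7.27% of all higher regions, although their median length of 236 bases was near the 193 bases of all higher regions. Cytosine density was 4.04 per 100 bases at the median, against 5.06 over all higher regions.

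**Figure D3:**
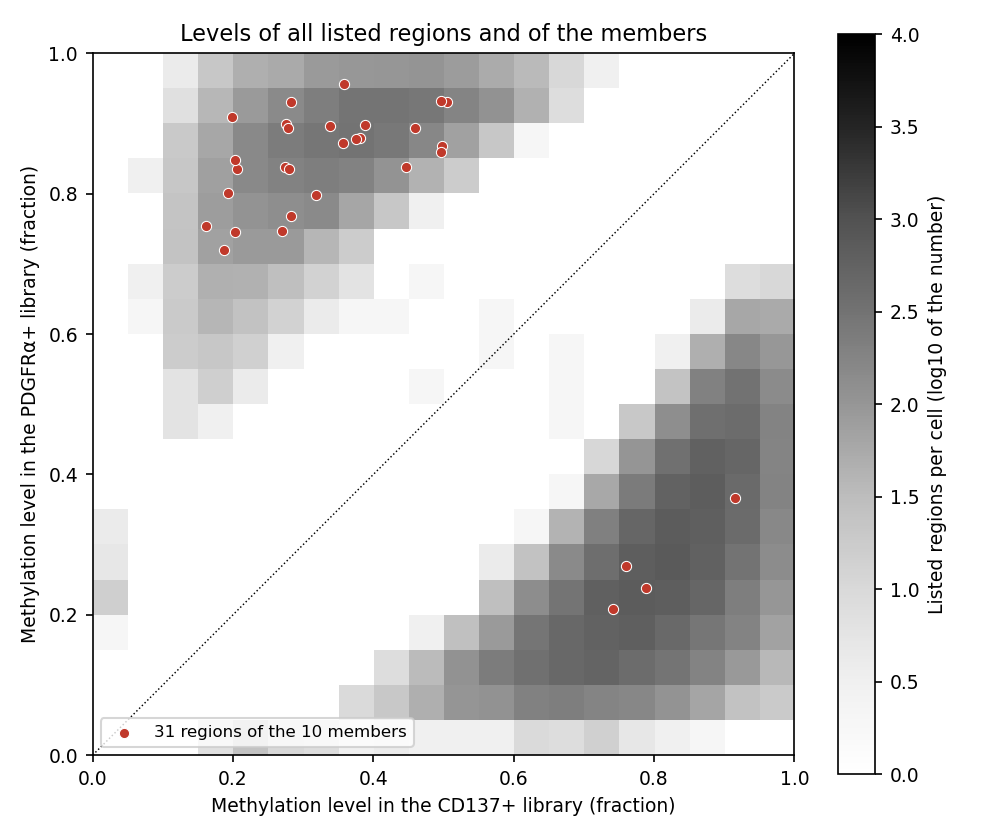
Level in the PDGFRα+ library (vertical axis) against level in the CD137+ library (horizontal axis), both as fractions. Grey cells count all 28141 listed regions on a log10 scale, red points are the 31 regions of the 10 genes, and the dotted line marks equal levels. The 27 points above the line and the 4 below it lie within the cloud of all regions on their side.

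The promoter windows of these genes were mostly poor in CG dinucleotides. Across the 10 windows of the 7 genes with an entry the median was 4.5, against 13 over all windows, and 8 of the 10 were at or below that median. The exceptions were the first start of Ikzf1 with 52 and that of Lcp1 with 19. The motif AGGAAG, a core bound by ETS factors such as PU.1, was searched on both strands and occurred in 6 of the 10 windows, those of Ptprc, Laptm5, Itpkb, Mrc1 and the other start of Ikzf1, and in 34.4% of all windows. The overlapping windows of Ptprc can share a match. TGTGGT, a core bound by RUNX factors, occurred in none of the 10 windows and in 15.0% of all windows. These matches describe the letters only.

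Other genes of leukocytes held both directions in like numbers. In 8 lists of leukocyte genes, 180 genes other than the 10 were looked up. A region was found at 78 (43.3%), against 29.5% of all protein-coding genes. Of these, 36 (46.2%) had mostly higher regions, 31 mostly lower and 11 as many of each. Of their 183 regions, 81 (44.3%) were higher, a share between that of the 10 genes and that of all regions, and the median over genes of the mean difference was 0.0121, against -0.445 over all protein-coding genes with a region. These lists were written with earlier results in view and were not matched to other genes by length.

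Pan-leukocyte genes of the surface, adhesion and the cytoskeleton had more higher than lower regions. Without the 4 that belong to the 10, 16 of 26 genes (61.5%) had a region, against 29.5% of all protein-coding genes. Of these 16, 11 were mostly higher and 4 mostly lower, and 23 of 41 regions (56.1%) were higher, against 22.3% over all listed regions. Arhgdib, a GTPase inhibitor of blood cells, was higher in 2 of 2 regions (mean levels of 0.568 and 0.155), as were 2 of 2 of Nckap1l, an actin regulator, whereas Cd53, a tetraspanin, had no region. Cytip, which regulates leukocyte adhesion, had 4 higher regions and 1 lower one. Dock2, a Rac activator needed for lymphocyte migration, was the main exception, with 9 of 11 regions lower. Vav1, an exchange factor of antigen-receptor signalling, had 2 higher and 3 lower, and Cd37, a tetraspanin, 1 and 3. The β2 integrin gene Itgb2, partner of Itgal, had 1 higher region (0.705 against 0.230). The majority of higher regions in this list did not hold with differences of at least 0.5 alone, where 44.4% were higher. Over all listed regions that setting gave 20.3%. Without regions shared with another protein-coding gene, 68.8% of the regions in this list were higher.

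Immune receptor signalling and blood transcription factors were divided by gene. Both lists had more lower than higher regions, yet their shares of higher ones were above the 22.3% over all listed regions. Of the signalling genes other than Itpkb, 8 were mostly higher and 8 mostly lower, and 22 of 58 regions (37.9%) were higher. Prkcb, a protein kinase C gene, was lower in 11 of 13 regions, and Jak3, the kinase of the common γ chain receptors, was lower in 6 of 6, with mean levels of 0.235 and 0.713. Inpp5d, the gene of the phosphatase SHIP1, had 4 of each, and Fyb, an adaptor gene, 3 higher and 2 lower. Pik3cg, a phosphoinositide kinase gene, was lower in 2 of 2 (0.263 and 0.867). Of the transcription factor genes other than Ikzf1 and Lyl1, 7 were mostly higher and 8 mostly lower, and 17 of 45 regions (37.8%) were higher. Runx1 was lower in 7 of 8 regions and Runx3 in 5 of 5 (mean levels of 0.210 and 0.879), both being factors of blood cell development. Bcl11b, a T-cell factor, had 3 of each, Lef1 had 2 higher and 3 lower, and Ikzf2, the gene of Helios, had 3 and 1. Pax5, the B-cell factor, was lower in 3 of 3 (0.315 and 0.829).

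Without the 10 genes, a region was found at 29.2% of T-cell and NK-cell genes, 29.7% of macrophage and granulocyte genes, 30.8% of antigen presentation genes and 37.5% of mast cell genes, near the 29.5% of all protein-coding genes, and at 6.67% of B-cell genes. Of the B-cell genes only Blk, a kinase gene, had a region besides Cd79b, and it was higher too (0.910 against 0.339). Cd79a and Ms4a1 had none. Among T-cell and NK-cell genes, 6 of 14 regions (42.9%) were higher, where the share over all listed regions was 22.3%. Cd3e was lower (0.324 against 0.966), Cd3d and Cd3g had no region, and Cd247, the ζ chain gene, had 3 higher and 2 lower. Il7r had 1 and 2, and Cd2 had 1 of each. Cd6 was lower (0.313 against 0.942) and Cd4 higher (0.929 against 0.442). Among macrophage and granulocyte genes other than Mrc1, 8 of 14 regions (57.1%) were higher, against the same 22.3%. Of the 11 genes with a region, 5 (Mpo, Csf1r, Siglec1, Fcgr3 and Tlr2) had only higher ones. Another 3 (Mertk, Ncf1 and Ncf4) had only lower ones, and 3 (Lyz1, Timd4 and Cybb) had 1 of each. Of the macrophage markers, Csf1r was higher (0.957 against 0.540), and Adgre1 and Cd68 had no region. Among the genes with a single region, the widest differences were at Mpo, Ncf1 and Ncf4. Mpo, encoding myeloperoxidase, was higher (0.889 against 0.272) and the oxidase subunit genes Ncf1 (0.352 against 0.912) and Ncf4 (0.350 against 0.893) were lower. Antigen presentation had 2 of 5 regions (40.0%) higher besides Cd74, with Cd86 split, Ctss higher (0.916 against 0.404) and Ciita and H2-DMa lower. The mast cell genes had 2 of 5 (40.0%), both in Kit, with Ms4a2 and Hdc lower.

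The relatives of the 10 genes did not share their direction as a group. Of 24 paralogues and partners, 15 (62.5%) had a region, against 29.5% of all protein-coding genes. Of their 33 regions, 15 (45.5%) were higher, against 22.3% over all listed regions. Higher regions prevailed at 6 genes and lower ones at 7, with 2 even. Among the relatives of Laptm5, which are expressed in many tissues, Laptm4a was lower in 3 of 3 regions (mean levels of 0.263 and 0.763) and Laptm4b in its only region (0.264 and 0.830). Of the Ikaros family, Ikzf2 was mostly higher, Ikzf3 higher (0.963 and 0.640) and Ikzf4 lower (0.162 and 0.775). Pls1, the plastin of epithelia, had 1 higher and 2 lower regions, and Pls3 had none. Itpka was higher (0.639 and 0.227) and Itpkc had no region. Ly75, a relative of Mrc1, had 1 higher and 2 lower, and Tal1, the relative of Lyl1, was lower (0.130 and 0.537). The receptor phosphatase genes Ptpre (3 and 3), Ptprj (1 and 1), Ptprb (1 and 3) and Ptpra (1 higher) were mixed, and the integrin gene Itgae was higher (0.861 and 0.311).

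Markers of the other cells of fat were listed alongside. Adipose progenitor and fibroblast genes had the opposite direction to the 10, with 1 of 27 regions (3.70%) higher. Pdgfra was lower in PDGFRα+ (0.210 against 0.769), as were 6 of 6 regions of Dcn, the gene of the matrix proteoglycan decorin (mean levels of 0.0811 and 0.643), 6 of 7 of Dpp4, and 3 of 3 each of the collagen genes Col1a2 and Col3a1. Pi16 had no region. Mesothelial and epithelial genes had 2 of 18 higher (11.1%), in Wt1 and Cdh1, and Lrrn4, Upk1b and Krt19 had only lower ones. Mural genes had 1 of 6 (16.7%), in Kcnj8, with Notch3, Acta2 and Rgs5 lower. Endothelial genes were nearer the leukocyte lists, with 18 of 33 regions (54.5%) higher. Of the 10 endothelial genes with a region, 6 were mostly higher, 3 mostly lower and 1 even. Pecam1, the adhesion molecule gene that leukocytes also express, was higher in 4 of 4 regions (mean levels of 0.931 and 0.509). Cdh5 was higher in its only region (0.8825 against 0.254) and Kdr in 2 of 2 (mean levels of 0.936 and 0.562). Erg was higher in 5 of 8, whereas Flt1 was lower in 6 of 7 and Vwf had 2 of each. Erythroid genes had 2 regions, a higher one in Tfrc and a lower one in Ermap, and Klf1 and Alas2 had none. Adipocyte genes had 3 of 9 higher (33.3%), with Fabp4 and Retn at 1 of each and Acsl1 at 1 and 2. Lipe was lower (0.203 against 0.852), and Adipoq and Plin1 had no region. The part that a different mixture of cells in the libraries has in the directions of the 10 genes was not tested.

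**Figure D4:**
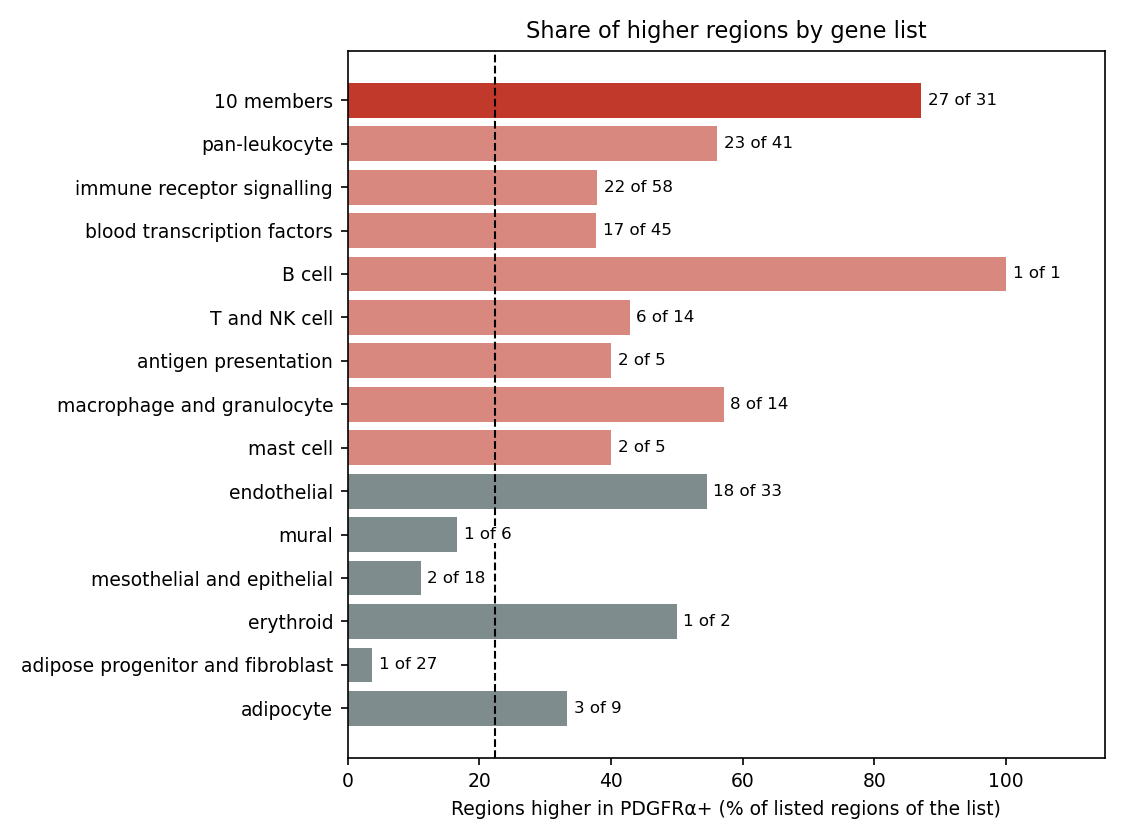
Share of listed regions that were higher in PDGFRα+ (%, horizontal axis) for the 10 genes (dark red), 8 leukocyte lists without the 10 (light red) and 6 lists of other cells (grey), with the number of regions beside each bar. The dashed line marks 22.3%, the share over all regions; the bars of the 10 genes and of the progenitor genes, at 87.1% and 3.70%, lie on opposite sides of it.

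The 2 kb limit decided 2 of the 31 regions. Inside it but outside the gene spans lay the region 1245 bases from Lyl1 and the one 1188 bases from Cd74. Just beyond it, the nearest region to Ikzf1 lay 5536 bases away and was higher (0.841 against 0.305), that of Mrc1 lay 9565 bases away and was lower (0.134 against 0.569), and that of Itpkb lay 10082 bases away and was lower (0.261 against 0.795). The next regions beyond Ptprc and Laptm5, 22016 and 28531 bases away, were lower as well. Allowing 10 kb at the sides of Ikzf1, 7 of its 8 regions were higher and its mean difference fell from 0.528 to 0.390. Whether regions lie in exons or introns is not given, because exons were not used here, and the gene starts of Itgal, Cd74 and Cd79b were not used either. Coordinates of regions are the authors', and since the table does not show from where it counts, a start can differ by 1 base.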

How the data were processed

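Whole-genome bisulfite data of 1 PDGFRα+ and 1 CD137+ library were used, as 1 table of regions made by the authors. Per library, the authors give each region's methylation as a fraction, and the direction is that of the deposited difference, PDGFRα+ (CD140) minus CD137+. Their area statistic, a deposited score, served only to filter regions. The length in bases and the number of cytosines are deposited as whole numbers. Coordinates are on mm10 according to the submitters' processing notes. Not given in the sources used here are aligner, region caller, thresholds, coverage and cytosine context. Only regions called as different are listed, so shares describe the list.

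Regions were assigned to RefSeq genes (GRCm38.p6) that they overlap or lie within 2 kb of, and the overlap search was checked against a brute-force search. Promoter windows and strands came from RefSeq, for 7 of the 10 genes. All 296 list symbols matched. The members and lists were chosen with earlier results of these data known. The rule for named genes was the 10 members, their relatives with a region, genes sharing a region, up to 6 genes per leukocyte list and 4 per other list with the most regions. Pdgfra, Cdh1, Cdh5, Kdr, Csf1r, Siglec1, Fcgr3, Tlr2, Mertk and the markers without a region were added after their values were seen. Some genes that the rule names are not reported here. No test was made, with 1 library per group. Alternatives covered the size of the difference, the number of cytosines, the statistic, the flank, weighting, merging, shared regions and each member left out. Python 3.11.15, numpy 2.4.6, pandas 2.3.3 and matplotlib 3.10.9 were used.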

Additional observations from a re-analysis of the deposited data

How the results depend on the processing

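The share of higher regions among the 10 genes ranged from 80.0% to 89.7% over the 10 alternatives of processing, and from 82.6% without Ptprc to 90.0% without Itgal or Mrc1. The number of mostly higher genes ranged from 5, with at least 10 cytosines or a statistic above the median, to 8, without a flank, and was 6 or 7 with any gene left out. The median difference over their regions was 0.510. When regions were weighted by cytosines, the value was a mean, 0.388, in place of the median. The gap between these values therefore cannot be put down to the weighting. With the same weighting the difference at Cd74 turned from 0.0888 to -0.0447. In the other leukocyte lists together, the share stayed between 39.8% and 46.1%. Some lists crossed 50%, and the cause was not tested. Antigen presentation rose to 66.7% (2 of 3 regions) with differences of at least 0.5, with at least 10 cytosines and with a statistic above the median. The mast cell list came to 66.7% with a statistic above the median and 52.9% when weighted. Macrophage and granulocyte genes came to 48.3% with 10 kb at the sides, and pan-leukocyte genes to 44.4% with differences of at least 0.5. Over all listed regions the share was 22.3% and 20.3% at these settings. The only other B-cell region, in Blk, drops out with at least 5 or 10 cytosines or a statistic above the median, which give no value. No paired analysis was possible because each group has 1 library. The read depth, which sets the precision of every level, is unknown.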

Other observations

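MicroRNA genes of blood cells were looked up in the same table, from a list written after the values of the 10 genes were known. Of the 11 such genes with a hairpin entry, 1 had a region within 2 kb of it, and over all 1005 microRNA genes with an entry the share was 6.87%, so the count is no result about the list. The gene was Mir142, whose microRNAs are abundant in all blood lineages and scarce elsewhere. The region, chr11:87755883-87756496, ends 368 bases before the hairpin (chr11:87756864-87756927, plus strand), holds 28 cytosines and was higher in PDGFRα+, with levels of 0.939 against 0.274. Its difference of 0.665 is wider than that of every region of the 10 genes except the one inside Cd74. The mature sequences of the gene are shown 5′ to 3′ from RefSeq to identify it, with the seed (bases 2 to 8) in capitals.
mmu-miR-142a-5p: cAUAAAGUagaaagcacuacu
mmu-miR-142a-3p: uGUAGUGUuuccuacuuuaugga
For the other genes with a hairpin in the table, which include Mir155, Mir223 and Mir146, the nearest region lay at least 20201 bases away.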
